A study of Mus musculus with 6 samples.

Results

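Histone cluster genes were taken as all genes whose symbol marks them as members of the mouse histone clusters Hist1 to Hist4, or as an H1f, H2ac, H2bc, H3c or H4c gene. The rule found 69 genes among the 23282 listed in each library, and all but H1f0 carried the older Hist names. They comprised 7 H1, 18 H2A, 19 H2B, 12 H3 and 13 H4 genes. Hist1 on chromosome 13 held 54 of them, Hist2 on chromosome 3 held 10, Hist3 on chromosome 11 held 3, and Hist4h4 and H1f0 lay alone on chromosomes 6 and 15. GENCODE annotated 68 as protein coding and Hist3h2bb-ps as a processed pseudogene.

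RNA came from CD4 T cells of spleen and lymph nodes of C57BL/6 mice, with 3 WT samples (Prkaa1fl/fl without CD4Cre) and 3 AMPK KO samples (Prkaa1fl/fl with CD4Cre). Prkaa1 encodes the catalytic alpha subunit of AMPK, the kinase that senses low cellular energy, and CD4Cre acts from the thymus onward in cells that have switched on Cd4. Both groups therefore carried the floxed allele, and both were rested for 1 h and stimulated with anti-CD3 and anti-CD28 (2 µg/mL). The labels give 24 h of stimulation and the methods give 6 h, and the methods give female mice aged 6 to 8 weeks. The samples of each group are described as biologically independent, and whether each came from a separate mouse is not given, so the p values measure the spread between these samples.

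Nucleosomes are built from the core histones H2A, H2B, H3 and H4, and H1 binds the linker DNA between them. Most of the clustered genes are transcribed in S phase, when new DNA must be packaged, and their mRNAs end in a conserved stem-loop instead of a poly(A) tail. Replacement histones such as H1f0 and H3f3b are made outside S phase from polyadenylated mRNAs. The libraries were Lexogen QuantSeq 3′ libraries, which are primed with oligo(dT) on a poly(A) stretch, so the clustered genes test how far such libraries see this mRNA class.

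The stem-loop was searched in the GENCODE transcripts by its 16-base consensus, and 46 of the 69 members held it. The form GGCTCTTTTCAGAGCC was found in 26 of them, in H1, H2A, H2B and H3 genes, whereas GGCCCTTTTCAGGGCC was found in 7, all of them H4 genes. The transcripts ended within 100 bases of the stem-loop for 23 members and ran further for 23. The other 23 held none, and for 13 of these the annotated transcript stops at the end of the coding sequence, so the search could not reach the place of the stem-loop. The 30-base stretches below are shown because they differ in the bases just before the stem-loop. The stem-loop is in capitals and each line reads 5′ to 3′ on the sense strand.
Hist1h2ap: gaaaaaaaaaaaaGGCTCTTTTCAGAGCCa
Hist1h2ao: gaaaaaaaaaaaaGGCTCTTTTCAGAGCCa
Hist1h2ae: taaaaaaaacaaaGGCTCTTTTCAGAGCCa
Hist2h2aa1: gagctcctaaaaaGGCTCTTTTCAGAGCCa
Hist1h2ac: cttcaaacccaaaGGCTCTTTTCAGAGCCc
Hist1h2be: ctcctaaaccaaaGGCTCTTTTCAGAGCCa
Hist1h4n: tttctcaactaaaGGCCCTTTTCAGGGCCa
Hist4h4: ccccatccacaaaGGCCCTTTTCAGGGCCc
Hist1h2ap and Hist1h2ao carry an unbroken run of 12 A directly before the stem-loop. Hist1h2ae has a run of 8, and 42 of the 46 members have a longest run of 2 to 5 in the 60 bases before the stem-loop.

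The WT libraries held 9574889 to 10168168 reads on genes, and those of AMPK KO held 10515124 to 11185184. Rn45s, the ribosomal RNA precursor, took 20.7% to 24.9% of these in WT, compared with 8.48% to 10.8% in AMPK KO. The log2 values of Prkaa1, the targeted gene, were 4.64, 5.24 and 4.86 in WT and 4.08, 4.72 and 4.67 in AMPK KO, and this difference did not exceed the spread (limma, adjusted p = 0.357). The transcript level of Prkaa1 therefore does not by itself check the labels. AMPK KO sample 2 stood apart from the other 5 libraries for H2A genes, and values without it are given beside those that it moved most. T cell markers were detected in every library, with summed values of 2583 to 2868 in WT and 1885 to 2370 in AMPK KO, and 3 of the 9 tested were called lower. Macrophage markers summed to 458 to 517 in WT and to 1051, 1567 and 866 in the 3 AMPK KO samples, and 6 of the 10 were called higher. Of all tested genes 2.54% were called higher and 3.10% lower. Bulk samples cannot tell fewer cells of a type from less RNA per cell.

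Although most of these mRNAs lack a poly(A) tail, nearly all members were detected. At least 1 read was found for 65, 66 and 62 of the 69 genes in the WT libraries and for 68, 68 and 67 in the AMPK KO libraries, against 55.4% to 59.8% of all listed genes per library. All 69 had a read in at least 1 library and 60 had one in all 6. Of the 69, 30 shared at least 50% of their 50-base windows with other members, so some could be detected through reads of another copy. With a minimum of 10 reads, 48 to 53 members remained in WT and 50 to 64 in AMPK KO. When the reads were scaled to the depth of the shallowest library, the expected numbers were 62 to 65.9 in WT and 66.9 to 67.9 in AMPK KO. That depth includes the reads of Rn45s. Outside Rn45s the WT libraries held 7194148 to 8064320 reads and those of AMPK KO 9623688 to 10025005. This scaling therefore leaves AMPK KO the deeper group for the members. The members together took 0.159% to 0.192% of the reads outside Rn45s in WT, and 0.180%, 0.295% and 0.140% in the 3 AMPK KO samples.

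Detection differed by histone type. Reads in all 6 libraries were found for 13 of 13 H4 genes, 17 of 18 H2A genes, 6 of 7 H1 genes, 10 of 12 H3 genes and 14 of 19 H2B genes. H2A genes took 75.7% to 83.6% of the members' reads in each library, H4 genes 6.69% to 8.71%, H1 genes 3.57% to 7.74%, H2B genes 3.64% to 7.93% and H3 genes 1.24% to 2.17%. The least detected members were Hist1h1t, the testis-specific linker histone, with 1 read in AMPK KO sample 1 and none in the other 5 libraries, and the pseudogene Hist3h2bb-ps, with 14 reads in AMPK KO sample 2 and none elsewhere. For a library with no read of a gene, counting error leaves room for about 3 expected reads, a log2 value of 0.32 to 0.42. This is an approximate limit and no hard bound.

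A pair of H2A genes supplied most of the reads. Hist1h2ap (chr13:21833026-21833507, minus strand) had 5190, 4816 and 5780 reads in WT and 6524, 11573 and 4792 in AMPK KO. Hist1h2ao (chr13:21810465-21810944, plus strand) had 2621, 2410 and 2971 reads in WT and 3233, 5785 and 2382 in AMPK KO. Together they held 56.3% to 63.3% of the members' reads in the WT libraries, and for AMPK KO this share was 50.9% to 61.1%. By mean log2 value they ranked 200 and 441 among all 23282 genes, and the next member, Hist2h2aa1, ranked 3058. Their transcripts share 93.1% and 93.5% of their 50-base windows with each other, so reads of the pair could be split between them by the authors' counting, and predicted genes on the opposite strand overlap both. The reads of Hist1h2ap and Hist1h2ao kept nearly the same proportion in every library, so their values may not be independent measurements.

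These are the members with the run of 12 A shown above. Over the 46 members with a stem-loop, the longest run of A in the 60 bases before it and the mean log2 value had a Spearman's rho of 0.54, and without the pair it was 0.47 over 44. This correlation is across genes, which share libraries and near-identical sequence, and is given as a description. It was not separated by histone type, and the types differed in level. Over all members the median of the mean log2 value was 4.64 for H2A, 3.30 for H4, 1.79 for H1, 1.25 for H2B and 1.02 for H3. A run of at least 12 A was present somewhere in the transcripts of 9.28% of protein-coding genes and of 3 members. The third is Hist1h2ac, whose run of 15 A is not in the 60 bases before the stem-loop and whose mean log2 value was 4.62. Whether priming took place at these runs was not tested.

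**Figure D1:**
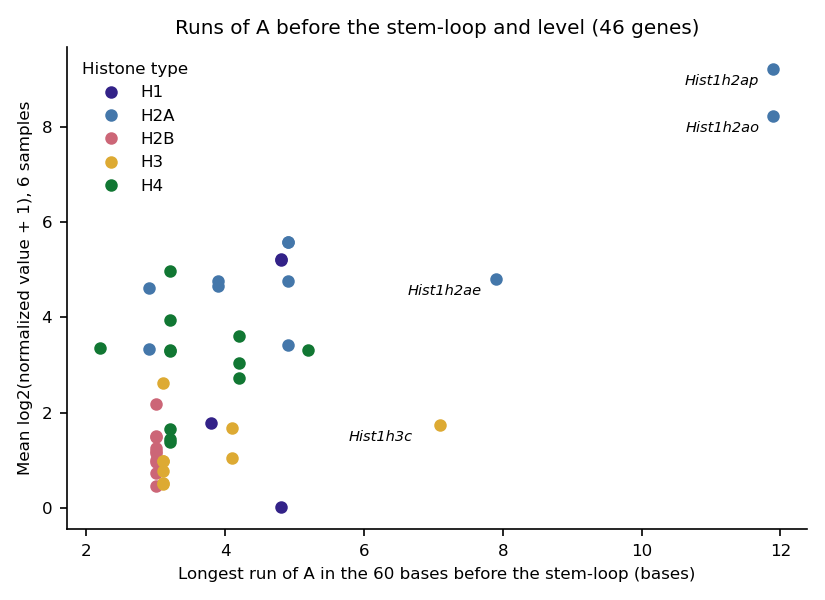
Mean log2(normalized value + 1) over 6 samples against the longest run of A in the 60 bases before the stem-loop, for the 46 members that hold one, coloured by histone type with small horizontal offsets between types. Hist1h2ap and Hist1h2ao stand alone at 12 A with means of 9.21 and 8.22, and all other members lie at or below 5.57.

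Summed normalized values (CPM scale) were also compared between the classes of annotated 3′ end, as a description. Outside Hist1h2ap and Hist1h2ao, the 21 members that end at the stem-loop summed to 214, 221 and 232 in WT and to 246, 447 and 233 in AMPK KO. The groups were apart only narrowly, and they overlapped when reads were scaled to those outside Rn45s. The 23 members that run past the stem-loop summed to 178, 186 and 202 against 219, 279.9 and 175, and the groups overlapped. For the 23 without a stem-loop in the transcript the sums were 154, 154 and 139.7 against 204, 302 and 173, with no overlap on either scale. That separation rested on Hist1h2bc, since the other 22 summed to 129, 121 and 119 against 153, 245 and 116 and overlapped. A poly(A) signal (AATAAA or ATTAAA) lay in the last 60 bases of an annotated transcript for 12 of the members that run past the stem-loop, 2 of those that end at it and 4 of those without one.

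Among the H2A and H2B genes, 13 pairs start within 500 bases of each other on opposite strands and so share a promoter region. In 12 of the 13 pairs the H2A gene had more reads than its H2B partner, with a median ratio of 18.0. The difference was small for Hist1h2aa against Hist1h2ba (20 and 19 reads) and for Hist2h2ac against Hist2h2be (635 and 499 reads). The partner of Hist3h2a is the pseudogene Hist3h2bb-ps, with 14 reads, all from AMPK KO sample 2. Hist1h2ap had 38675 reads over the 6 libraries and its partner Hist1h2br had 155. Hist1h2ai had 1997 reads and its partner Hist1h2bl had 55. The exception was Hist1h2ac with Hist1h2bc, where the H2A gene had 1572 reads and the H2B gene 2640. Reads of 3′ libraries stand for transcript ends and are not divided by length.

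**Figure D2:**
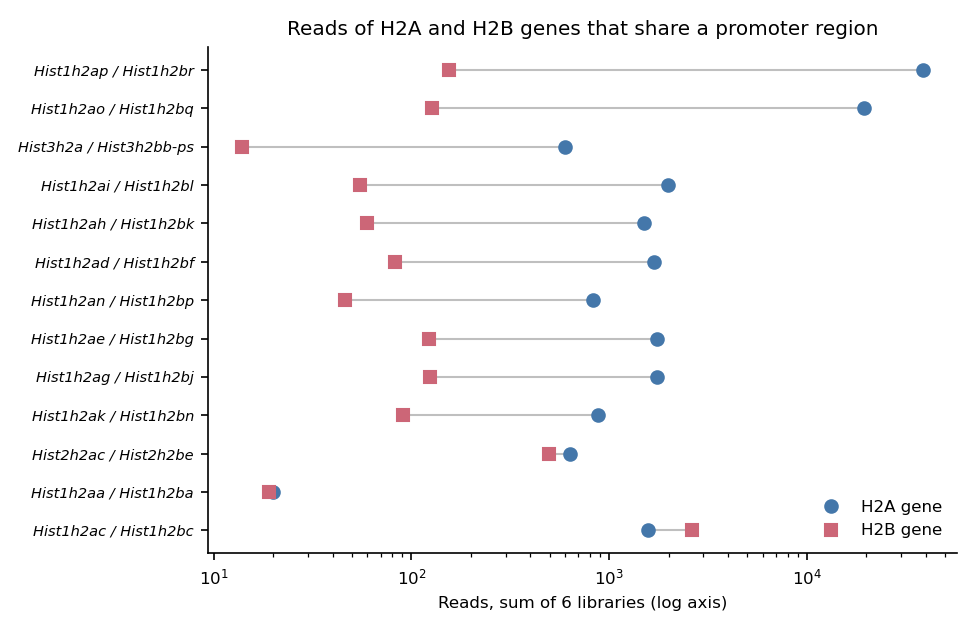
Reads summed over the 6 libraries (log axis) of the H2A gene (circles) and the H2B gene (squares) in the 13 divergent pairs, ordered by their ratio. The squares lie left of the circles in 12 pairs, and Hist1h2bc with 2640 reads lies right of Hist1h2ac with 1572.

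The promoter region of this exceptional pair is shown because its H2B gene was also the member that changed between the genotypes. It comes from RefSeq (GRCm38.p6, chr13:23683910-23684209, minus strand), runs 5′ to 3′ in the direction of Hist1h2ac, and covers the 250 bases between both annotated starts. Capitals mark the TATA box TATAAA, the box CCAAT and the octamer ATTTGCAT, which were each searched on both strands.
Hist1h2ac and Hist1h2bc: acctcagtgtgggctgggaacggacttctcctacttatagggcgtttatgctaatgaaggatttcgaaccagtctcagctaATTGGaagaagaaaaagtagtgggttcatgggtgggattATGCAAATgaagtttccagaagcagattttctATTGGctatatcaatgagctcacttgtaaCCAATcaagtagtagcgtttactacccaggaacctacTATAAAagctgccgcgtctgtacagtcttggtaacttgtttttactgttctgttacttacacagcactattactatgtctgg
It holds 1 TATAAA, 3 CCAAT and 1 octamer. Promoter windows of this length (250 bases before to 50 after the start) were matched for 62 members. CCAAT was found in 83.9% of them and in 37.9% of all 27025 windows, TATAAA in 56.5% and 14.2%, and the octamer in 21.0% and 1.75%. CCAAT was in all 17 H2A, all 16 H2B and all 10 H3 windows and in 3 of 12 H4 windows. The octamer was in 7 H2A and 6 H2B windows and in no H1, H3 or H4 window. A match of these letters is a description and shows no binding.

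AMPK KO and WT were then compared with limma over 11279 genes whose mean log2 value was at least 1, with Benjamini-Hochberg adjustment over all of them. Of the 69 members, 55 passed this filter, and the 14 that did not were 6 H2B, 6 H3, 1 H2A and 1 H1 gene. A single member, Hist1h2bc, had an adjusted p under 0.05. That is 1.82% of the members tested, compared with 5.65% of all genes tested, and 2.54% when only genes higher in AMPK KO are counted. At an unadjusted p under 0.05 there were 6 members (10.9%) against 21.3% of all genes. Leaving out single libraries moved this count to between 3 (without WT sample 2, WT sample 3 or AMPK KO sample 2) and 11 (when AMPK KO sample 3 was left out). The share of all genes in these settings is not given here, and 21.3% holds for all 6 samples only. The groups did not overlap for 11 of the 55 members against 25.6% of all genes, and 10 of the 11 were higher in AMPK KO. That is 10 of 55 members, compared with 11.6% of all genes that did not overlap and were higher.

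Hist1h2bc rose in AMPK KO. It encodes a core H2B protein and lies at chr13:23684199-23692908 on the plus strand, with an annotated transcript of 1156 bases in 2 exons that holds no stem-loop. Its log2 values were 4.70, 5.08 and 4.41 in WT and 5.69, 5.87 and 5.87 in AMPK KO, from 179 to 329 reads per WT library and 601 to 685 per AMPK KO library. All 3 AMPK KO samples lay above all WT samples and close together. WT averaged 4.73 ± 0.34 (SD, n = 3), whereas AMPK KO averaged 5.81 ± 0.10 (SD, n = 3). Its log2 fold change was 1.08 (standard error 0.21, limma adjusted p = 0.00944). By exact permutation (two-sided) p was 0.1, the smallest that 3 samples against 3 allow. The gene shared 29.4% of its 50-base windows with other members. Its call was lost without WT sample 1 or WT sample 3 and with a replicate block, with limma adjusted p of 0.0686, 0.0719 and 0.0690.

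Its divergent partner Hist1h2ac, a core H2A gene at chr13:23681467-23683948 on the minus strand, had values of 4.41, 4.41 and 4.18 in WT and 4.80, 5.43 and 4.52 in AMPK KO. The groups did not overlap, and AMPK KO sample 2 was the highest. The log2 fold change was 0.58 (standard error 0.26, limma adjusted p = 0.212), and 0.32 without that sample.

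The members next nearest to the threshold were Hist4h4 and Hist1h2be. Hist4h4, an H4 gene that stands alone at chr6:136801553-136804415 and whose transcript runs 2445 bases past the stem-loop, had values of 2.30, 2.87 and 3.08 in WT and 3.81, 4.29 and 3.45 in AMPK KO, from 36 to 199 reads. Its groups did not overlap (log2 fold change 1.10, standard error 0.35, limma adjusted p = 0.0760). Hist1h2be, an H2B gene at chr13:23583670-23621124, had 31, 16 and 12 reads in WT and 73, 76 and 53 in AMPK KO, with log2 values of 2.13, 1.38 and 1.24 against 2.84, 3.01 and 2.45. Its log2 fold change of 1.19 (standard error 0.40, limma adjusted p = 0.09998) did not pass either, and it was 0.62 with a pseudocount of 5 and 1.45 with 0.25. Hist1h2be overlaps the linker histone gene Hist1h1e on the same strand, so reads in the overlap could belong to either.

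**Figure D3:**
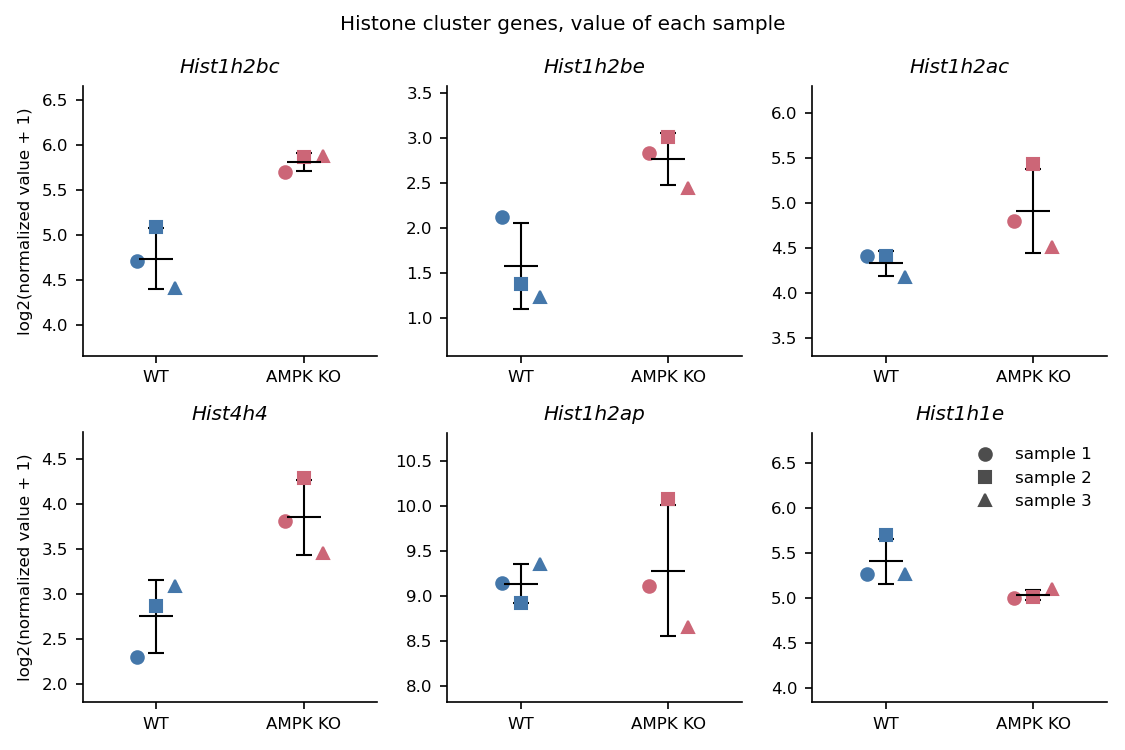
Log2(normalized value + 1) of 6 members in each sample, with the group mean and SD as black bars and symbols for samples 1 to 3; each panel spans 3 log2 units. The groups are apart for Hist1h2bc, Hist1h2be, Hist1h2ac, Hist4h4 and, in the opposite direction, Hist1h1e, whereas for Hist1h2ap AMPK KO sample 2 is highest at 10.1 and AMPK KO sample 3 lowest at 8.66.

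By histone type, the core histones H2A and H4 stood mostly above 0. All 17 tested H2A genes had a positive log2 fold change, with a median of 0.38, and none passed the test. With quantile normalization, or with scaling to the reads outside Rn45s, 16 of the 17 were positive. All 13 H4 genes were positive, with a median of 0.36 and with no call, and they were also positive under both of these scalings. Over all 55 tested members, 45 (81.8%) were positive with a median of 0.31, against 51.2% of all tested genes with a median of 0.02.

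This lean rested in large part on AMPK KO sample 2. It was the highest of the 6 libraries for 36 of the 55 members (65.5%), against 21.2% of all tested genes. Among them were 16 of 17 H2A genes and 9 of 13 H4 genes. Without this sample the median over the 55 members was 0.09 and 35 were positive, whereas leaving out AMPK KO sample 3 raised the median to 0.47 with 48 positive. Without AMPK KO sample 2 the H2A median was 0.14, with 12 of 17 positive, and the H4 median was 0.13, with 10 of 13 positive. Hist1h2bc kept a log2 fold change of 1.05 without it (limma, adjusted p = 0.00740).

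**Figure D4:**
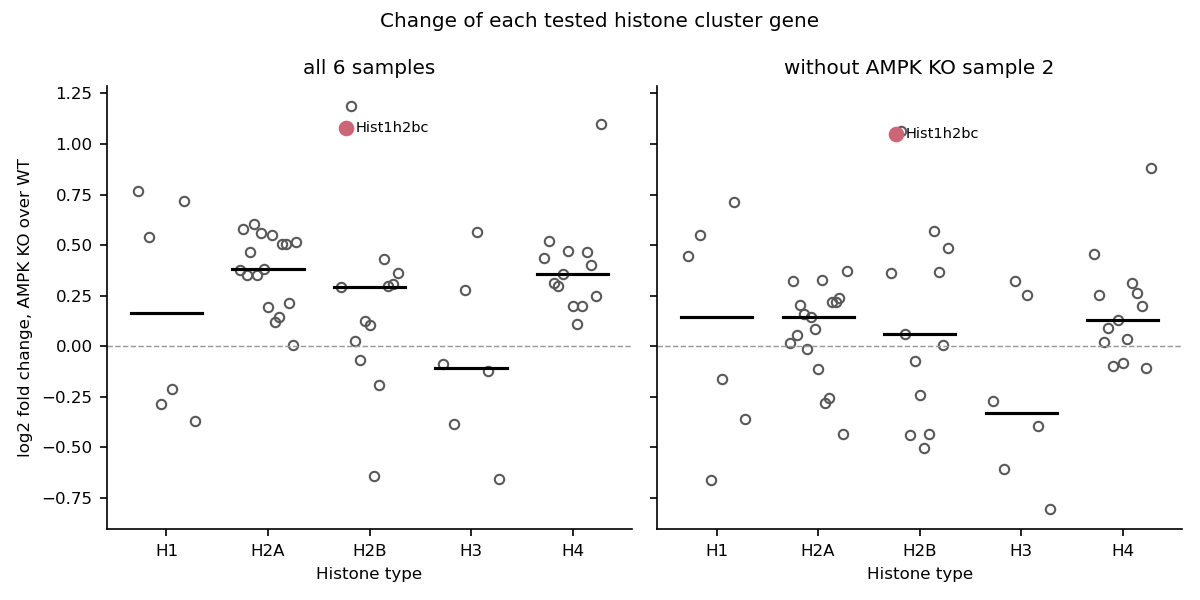
Log2 fold change (AMPK KO over WT) of each of the 55 tested members by histone type, with all 6 samples (left) and without AMPK KO sample 2 (right); black lines are medians, and the filled point has an adjusted p under 0.05 in limma. The H2A and H4 medians move from 0.38 and 0.36 to 0.14 and 0.13, and Hist1h2bc stays filled.

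The most abundant H2A genes illustrate this sample. Hist1h2ap had log2 values of 9.14, 8.92 and 9.35 in WT and 9.11, 10.08 and 8.66 in AMPK KO. The AMPK KO samples thus lay both above and below all WT samples. Its log2 fold change of 0.14 (standard error 0.26, limma adjusted p = 0.797) became −0.25 without AMPK KO sample 2. Hist1h2ao had 8.16, 7.92 and 8.40 in WT and 8.10, 9.08 and 7.65 in AMPK KO, in the same order of samples. Hist1h2ai, Hist1h2ae, Hist1h2ag, Hist1h2ad, Hist1h2ab and Hist1h2ah stood at 5.52 to 5.76 in AMPK KO sample 2 and at 4.13 to 5.18 in the other 5 libraries. Their log2 fold changes were 0.35 to 0.56, with adjusted p of 0.304 to 0.527 in limma, and became −0.015 to 0.21 without AMPK KO sample 2.

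Hist2h2aa1 and Hist2h2aa2, which encode the same H2A protein, carried identical values in every library and are thus a single measurement, although both are in the counts above. Counted once, which was tried after seeing the data, they leave 54 tested members with 44 positive and 10 with groups apart, and 16 tested H2A genes, all positive. AMPK KO sample 2 was then the highest library for 35 members and 15 H2A genes. Their values were 5.27, 5.32 and 5.37 in WT and 5.56, 6.39 and 5.52 in AMPK KO. The groups did not overlap (log2 fold change 0.50, standard error 0.23, limma adjusted p = 0.216). Leaving out AMPK KO sample 2 gave a log2 fold change of 0.22. Hist2h3c1 and Hist2h3c2 were identical in the same way and lay under the filter. Of the 69 members, 30 shared at least 50% of their 50-base windows with others, and their single values are uncertain for this reason.

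Among H4 genes, Hist1h4n was highest, with 4.77, 4.67 and 4.84 in WT and 4.99, 5.56 and 4.94 in AMPK KO. The groups did not overlap (log2 fold change 0.40, standard error 0.22, limma adjusted p = 0.325). Leaving out AMPK KO sample 2 gave 0.20.

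H2B genes other than Hist1h2bc varied in direction. Of the 12 tested, 9 were positive, with a median of 0.21. With quantile normalization 7 were positive. Without AMPK KO sample 2 also 7 were, with a median of 0.03, and without WT sample 2 there were 5, with a median of −0.09. The range ran from −0.64 for Hist1h2bm to 1.19 for Hist1h2be.

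H3 and H1 genes were mixed in direction. Of 6 tested H3 genes 2 were positive, with a median of −0.11 that was −0.33 without AMPK KO sample 2. Leaving out sample 3 of AMPK KO instead turned it to 0.08. With no filter 6 of 12 were positive, with a median of 0.14. The highest H3 gene by mean, Hist1h3a, had 2.61, 2.70 and 2.71 in WT and 1.92, 2.95 and 2.89 in AMPK KO, and its AMPK KO values spanned all WT values (log2 fold change −0.09, standard error 0.38, limma adjusted p = 0.924). Of 6 tested H1 genes 3 were positive. Hist1h1e had 5.26, 5.69 and 5.26 in WT and 4.998, 5.01 and 5.09 in AMPK KO, and it was the only tested member whose AMPK KO samples all lay below WT. Its log2 fold change of −0.37 (standard error 0.20, limma adjusted p = 0.306) did not pass the test. Hist1h1c had 5.25, 5.08 and 5.57 against 5.44, 4.99 and 4.85, with overlapping groups (log2 fold change −0.21, standard error 0.22, limma adjusted p = 0.631). H1f0, the replacement linker histone, had 3.18, 3.45 and 3.12 in WT and 4.21, 4.66 and 3.18 in AMPK KO, where AMPK KO sample 3 lay among the WT samples (log2 fold change 0.77, standard error 0.36, limma adjusted p = 0.235). Without AMPK KO sample 2 it was 0.45. Differences between the types were not tested.

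Values were also summed within each type on the normalized CPM scale, as a description without a test. H2B genes summed to 66.7, 64.7 and 56.9 in WT and to 98.6, 117.5 and 93.9 in AMPK KO, and the groups did not overlap. WT averaged 62.8 ± 5.21 (SD, n = 3), whereas AMPK KO averaged 103.4 ± 12.5 (SD, n = 3), which is 1.65 times as much. Without Hist1h2bc the H2B sums were 41.7, 31.8 and 36.6 against 47.9, 60.2 and 36.3, and they overlapped. H2A genes summed to 1130, 1006 and 1266 in WT and to 1149, 2213 and 896 in AMPK KO. AMPK KO sample 2 was 1.95 times the WT mean, whereas sample 3 was below every WT sample. The log2 ratio of the H2A group means was 0.32, and −0.15 without AMPK KO sample 2. Without Hist1h2ap and Hist1h2ao, a sum added after seeing the data, the other 16 H2A genes summed to 282, 283 and 277 in WT and to 326, 596 and 293 in AMPK KO, where the groups did not overlap. They overlapped when scaled to reads outside Rn45s, and the log2 ratio of 0.53 was 0.14 without AMPK KO sample 2. H4 genes summed to 93.3, 85.9 and 116 in WT and to 122, 188 and 103 in AMPK KO, with a log2 ratio of 0.48 that was 0.19 without AMPK KO sample 2. Over all 69 members this ratio was 0.33, and −0.08 without that sample. H1 sums were 86.3, 99.3 and 96.6 against 102, 94.5 and 72.3, and H3 sums were 18.0, 27.8 and 26.9 against 20.7, 32.8 and 18.7. Both overlapped.

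**Figure D5:**
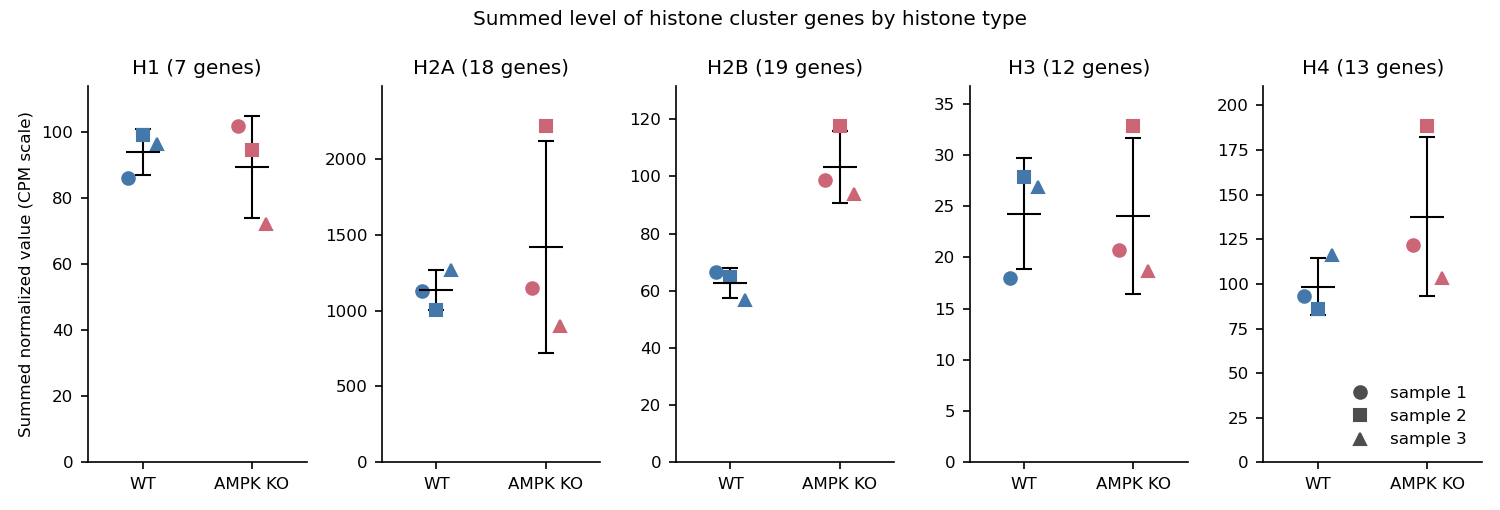
Summed normalized value (CPM scale) of the genes of each histone type in each sample, with symbols for samples 1 to 3 and the group mean and SD as black bars. Of the 5 sums drawn, only that of H2B is apart between the groups, at 56.9 to 66.7 in WT and 93.9 to 117.5 in AMPK KO, and AMPK KO sample 2 is the highest sample for H2A, H2B, H3 and H4.

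Other measures of the same sample are set beside this. The 28 S phase genes, which include the replication factors Pcna and Mcm2 to Mcm7, summed to 872, 911 and 906 in WT and to 775, 799 and 839 in AMPK KO, and AMPK KO sample 2 was the highest library for 3 of them. By gene, 15 of the 28 had a positive log2 fold change, with a median of 0.18, so the sum and the median differ in sign. Of the 9 lists of cell type markers, the summed level was highest in AMPK KO sample 2 for 6, namely macrophage, erythroid, B cell, plasma cell, NK cell and platelet markers. Erythroid markers summed to 5578 there, against 2899 to 4601 in the other 5 libraries, and B cell markers to 287, against 236 to 269.6. The sums were also apart between the groups, as Hist1h2bc was, for 7 lists. Plasma cell markers were 106 to 130 in WT and 436 to 479 in AMPK KO, with 1 of 5 called higher. CD8 T cell markers were 231 to 305 and 321 to 376, NK cell markers 65.8 to 91.3 and 94.9 to 116, and platelet markers 7.01 to 14.0 and 17.0 to 27.4, where 1 of 3 was called higher. Like these, macrophage markers were higher in AMPK KO, whereas T cell and neutrophil markers were lower. Neutrophil markers were 777 to 896 in WT and 502 to 742 in AMPK KO, with 2 of 6 called lower. The shares over all tested genes were 2.54% called higher and 3.10% called lower. No marker of any of the 9 lists was at 0 in all libraries, and the part of these cells in the histone values was not tested. The methods name CD4 microbeads or a cell sorter for the isolation.

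Replacement histones outside the clusters, most of whose mRNAs are polyadenylated, were given as the nearest comparison. Of 8 tested, 3 rose (37.5%, against 2.54% of all tested genes) and none fell. H3f3b, which encodes the replacement histone H3.3, had 9.43, 9.43 and 9.34 in WT and 10.01, 10.17 and 10.10 in AMPK KO, with no overlap (log2 fold change 0.69, standard error 0.13, limma adjusted p = 0.00777). H2afz, the gene of the H2A variant at promoters, rose by 0.68 (standard error 0.13, limma adjusted p = 0.00813). H2afx, the gene of the variant that is phosphorylated at DNA breaks, which is known to make a stem-loop mRNA besides a polyadenylated one, rose by 0.80 (standard error 0.21, limma adjusted p = 0.0369), a call lost under scaling to reads outside Rn45s and with no filter on low values. All 3 calls were lost without WT sample 1 or WT sample 3 and with a replicate block, and those of H2afz and H2afx also without AMPK KO sample 1.

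Genes that act on histone mRNA or histone proteins were also listed. Of 26 tested genes of histone gene transcription and mRNA 3′ end processing, none rose and 3 fell (11.5%, against 3.10% of all tested genes). Casp8ap2, which encodes a protein of the histone locus body, fell from 6.99, 7.22 and 7.09 to 6.36, 6.20 and 6.36 (log2 fold change −0.80, standard error 0.15, limma adjusted p = 0.00751). Zcchc11, a terminal uridylyltransferase gene, had a log2 fold change of −0.78 (standard error 0.15, limma adjusted p = 0.00790). Ncbp1, the gene of a cap-binding subunit, had −0.72 (standard error 0.16, limma adjusted p = 0.0168). Slbp, which encodes the protein that binds the stem-loop, had 2.71, 4.28 and 3.94 in WT and 4.66, 3.83 and 5.19 in AMPK KO, and its groups overlapped (limma, adjusted p = 0.209). It was named after its values were seen.

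Of 25 tested chaperone genes, Atrx, which helps to deposit H3.3, fell (log2 fold change −0.59, standard error 0.14, limma adjusted p = 0.0215) and none rose. A single call was thus 4.0% of this list, near the 3.10% of all genes. Of the 28 S phase genes, Pcna, the replication clamp, rose (log2 fold change 0.74, standard error 0.19, limma adjusted p = 0.0332) and Mcm7, a helicase subunit, fell (log2 fold change −0.68, standard error 0.17, limma adjusted p = 0.0339), each 3.57% of the list and near the shares of all genes in those directions. Of 8 tested histone methyltransferase genes, which place marks on histone H3, Kmt2a fell (log2 fold change −0.56, standard error 0.14, limma adjusted p = 0.0315), 12.5% of a short list. The calls of Casp8ap2, Zcchc11, Ncbp1, Atrx, Pcna, Mcm7 and Kmt2a were each lost without WT sample 3 and with a replicate block, and that of Pcna also under scaling to reads outside Rn45s. Without WT sample 1 only that of Casp8ap2 among them passed. Without AMPK KO sample 1 those of Ncbp1, Atrx, Pcna, Mcm7 and Kmt2a were lost, and without AMPK KO sample 3 those of Pcna and Mcm7. With no filter those of Atrx, Pcna, Mcm7 and Kmt2a were lost. Dot1l, the writer of H3K79 methylation that the study follows, had 6.19, 6.27 and 6.16 in WT and 6.53, 5.78 and 6.71 in AMPK KO, with overlapping groups (limma, adjusted p = 0.764). It was also named after its values were seen.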

How the data were processed

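The authors prepared QuantSeq 3′ libraries (Ebiogen) from 500 ng of total RNA of 6 samples, normalized the reads by TMM and CPM, and deposited values on a log2 scale as log2(value + 1). Their processing notes list Bowtie2, bedtools and mm10, without versions or roles. Strand use in counting is not given in the sources used here. Values fell on multiples of a single step per library, and up to 100 reads 100% were within 0.1 of a whole number, so reads and totals were recovered from them. Reads are not independent molecules, and intervals cover counting error only.

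Members were found by symbol and matched to GENCODE M21 (69 of 69) and RefSeq (68). Members and lists were chosen with earlier results of these data known. Values were compared with limma 3.58.1 (R 4.3.3; lmFit, eBayes with trend), two-sided, for genes with a mean of at least 1, without covariates, and checked on simulated data. The mean over libraries, SD and sums used Python 3.11.15 and pandas 2.3.3. Named members were those called, the 15 with the highest mean, the highest of each type, and the 3 nearest to the threshold. From each related list, the called genes were named, up to 6. Alternatives were quantile normalization, scaling outside Rn45s, other filters and pseudocounts, robust eBayes, voom on recovered reads, a replicate block and leaving out each library.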

Additional observations from a re-analysis of the deposited data

How the results depend on the processing

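Hist1h2bc was the only histone cluster gene called with quantile normalization, scaling to the reads outside Rn45s, no filter, a filter of 3, pseudocounts of 0.25 and 5, robust eBayes and voom on recovered reads. Its log2 fold change was 0.92 to 1.25 over 15 alternatives, with adjusted p of 0.00556 to 0.0719. Leaving out each library gave 0 to 1 calls among the members, with 0 without WT sample 1 or WT sample 3. An adjusted p under 0.1 gave 3, and the share of all genes at that threshold is not given here. Over all genes the count of 637 became 308 with no filter and 127 to 1246 with each library left out. WT samples 1 and 3 gave 127 and 140 when left out, and AMPK KO samples 1 and 2 gave 172 and 1246. Of the 637 calls 287 were higher in AMPK KO, and with scaling to the reads outside Rn45s 235 of 722 were.

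With a replicate block, 0 members and 102 of all genes were called, and 3 members had an unadjusted p under 0.05. The deviations of same-numbered samples from their group means correlated at −0.22, −0.53 and −0.31, which gave no sign of pairing by number. Such correlations cannot settle whether the samples were prepared in pairs, and the sources used here do not give this.

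The direction reversed for Hist1h2ap (−0.25 without AMPK KO sample 2, range over left-out libraries −0.25 to 0.45), Hist1h2ao (−0.28 without AMPK KO sample 2, also below 0 without WT sample 2, range −0.28 to 0.43), Hist1h2ag (−0.015 without AMPK KO sample 2, range −0.015 to 0.66) and Hist1h3a (0.24 without AMPK KO sample 1, range −0.27 to 0.24), with 24 of the 28 named genes keeping theirs. The log2 ratio of summed H2B genes, 0.72, was 0.39 without Hist1h2bc, that of H2A genes, 0.32, was −0.15 without AMPK KO sample 2 and 0.53 without Hist1h2ap and Hist1h2ao, or 0.14 without both these genes and that sample, and that of H1 genes, −0.07, was 0.15 without Hist1h1e. The mean number of members detected per library, 66.0, was 53.8 with at least 10 reads and 65.9 at the depth of the shallowest library, counted with Rn45s. The cause of these changes was not tested. Of the 14 members with a mean under the filter, 12 were H2B and H3 genes.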
